A study of Homo sapiens with 8 samples.

Results

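The type I interferon response was followed here through 42 interferon-stimulated genes, named one by one as members of the response (IFI, IFIT, IFITM, OAS and MX family genes, ISG15 and its enzymes, RNA sensors, STAT2 and related genes), out of 26475 gene symbols in the count table. All 42 were found in the table, and 34 of them had enough reads to be tested, among 12401 genes tested in all.

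The study sequenced bulk RNA of MOLM-13, a human cell line from acute myeloid leukemia, with a KMT2A fusion, that the labels give as wild type, in 4 groups of 2 libraries each, 8 libraries in all. The groups were cells given VTP50469 together with WM1119 (the combination), cells given VTP50469 alone, cells given WM1119 alone, and cells given DMSO, the solvent control. VTP50469 keeps menin from binding KMT2A, and WM1119 (spelled WM119 in the labels) inhibits the histone acetyltransferase KAT6A. Neither doses nor treatment times are stated in the sources used here, nor is it stated if replicates were separate cultures, so the p-values measure only the spread between libraries of one line, which may be technical.

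Type I interferons are secreted proteins that bind the IFNAR1 and IFNAR2 receptor pair, activate the kinases JAK1 and TYK2, and send a complex that holds STAT2 and IRF9 to the nucleus. That complex binds a promoter motif called the interferon-stimulated response element (ISRE), and the genes it switches on block viral entry, degrade or edit viral RNA, tag proteins with the ubiquitin-like protein ISG15, and raise the sensors that detect viral RNA and DNA. The same genes can also be expressed at a low tonic level in blood cells without infection.

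The promoters of several members are shown because the ISRE core is the feature by which this family is usually recognised. RefSeq promoters on GRCh38.p14 (250 bases before to 50 after a start site, 300 bases in all) were given for 33 of the 42 members, and the entries not given were those of GBP2, IFIT2, IFITM2, LY6E, MX2, OAS2, OASL, TRIM22 and USP18. The ISRE core was searched on both strands as GAAA, then 2 bases of any kind, then GAAA, and 23 of the 33 members (69.7%) held at least 1 match, against 4.38% of the 27305 genes with a promoter of this length. A second motif, TTCNNNGAA (the gamma-activated site, a palindrome and so the same on both strands), was in 8 of the 33 members (24.2%), against 9.38% of all genes. A match is a run of letters and does not show that a factor binds there.

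In the sequences below, written 5′ to 3′ on the strand of the gene, capitals mark the matches to the ISRE core. IFI6 and BST2 were called higher in the combination, ISG15, DTX3L and SAMD9 were tested and not called, and OAS3, IFIT1 and IFI27 were nearly silent in all 8 libraries. The windows are chr1:27672261-27672363 (minus strand) for IFI6, chr19:17405730-17405775 (minus strand) for BST2, chr1:1013369-1013414 (plus strand) for ISG15, chr3:122564322-122564351 (plus strand) for DTX3L, chr7:93118091-93118130 (minus strand) for SAMD9, chr12:112938316-112938473 (plus strand) for OAS3, chr10:89392492-89392544 (plus strand) for IFIT1 and chr14:94110613-94110665 (plus strand) for IFI27, all on GRCh38.p14.
IFI6: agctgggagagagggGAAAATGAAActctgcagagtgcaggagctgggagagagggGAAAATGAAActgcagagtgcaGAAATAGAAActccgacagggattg
BST2: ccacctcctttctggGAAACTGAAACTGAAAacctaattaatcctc
ISG15: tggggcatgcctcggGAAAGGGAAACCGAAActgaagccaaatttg
DTX3L: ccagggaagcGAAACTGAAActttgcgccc
SAMD9: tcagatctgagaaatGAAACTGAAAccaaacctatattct
OAS3: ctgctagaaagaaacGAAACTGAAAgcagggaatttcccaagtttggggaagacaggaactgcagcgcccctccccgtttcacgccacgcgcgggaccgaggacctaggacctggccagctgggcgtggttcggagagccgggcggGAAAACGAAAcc
IFIT1: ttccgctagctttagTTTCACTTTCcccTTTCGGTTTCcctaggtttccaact
IFI27: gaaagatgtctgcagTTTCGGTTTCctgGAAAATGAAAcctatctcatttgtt

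IFI6 held 3 separate matches between 156 and 93 bases before its start. BST2 held 2 matches that share 4 letters, beginning 130 and 124 bases before its start. The DTX3L match lies in the short stretch from which PARP9 is transcribed in the other direction, and it was counted for both genes. All 8 members that were too low to test had at least 1 match in a promoter, compared with 15 of the 25 tested members that had a promoter entry (60.0%). Of the 6 members called in any comparison, 5 had a promoter entry and 2 of these, IFI6 and BST2, held the ISRE core. The promoters of STAT2, OAS1 and IFI16 held no match to these letters in this window.

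The libraries held 18092906 to 23634468 counts. Of 11 myeloid leukemia markers, 10 were tested and ANPEP (CD13) had 0 to 4 counts a library. Their summed level was 9233 and 12460 CPM (counts scaled to a common library total with TMM factors) in the combination. It was 1712 and 1783 CPM in DMSO, and the sum was led by LYZ and MPO. Single markers went both ways, with log2 changes in the combination relative to DMSO of -2.15 to 5.36. At an edgeR adjusted p under 0.05, 6 of the 10 were higher and 2 lower, against 5.85% and 3.44% of all tested genes. Of 6 erythroid markers, 5 were at 0 throughout. The summed level of 7 T and NK cell markers was 33.2 and 84.3 CPM in the combination, against 25.2 and 22.3 CPM in DMSO. CD3E and CD3G were at 0 in every library. Of the 7, 3 were tested, and 1 was higher in the combination relative to DMSO at that threshold and 0 lower. The log2 changes of these 3 were -1.04 to 4.74. For 5 B and plasma cell markers it was 1.65 and 3.16 CPM in the combination, against 0.758 and 0.759 CPM in DMSO. For 7 epithelial, stromal and HEK293 markers it was 1119 and 1342 CPM in the combination, against 777 and 711 CPM in DMSO, nearly all of it VIM. EPCAM, COL1A2 and PAX2 were at 0 in every library. Of these 7, 4 were tested, and 1 was higher at that threshold and 0 lower. The summed level of 6 markers of plasmacytoid dendritic cells, a cell type known for interferon production, was 28.3 and 26.3 CPM in the combination. It was 52.1 and 45.2 CPM in DMSO, with 1 of the 6 at 0 in every library. Of these 6, only 2 were tested, and 0 were higher and 0 lower at that threshold. The log2 changes of these 2 were -0.84 and -0.82. What these marker levels have to do with the member changes below was not tested. In bulk RNA, fewer cells of a type and less RNA per cell cannot be told apart. Combination replicate 2 stood apart: it had 12972 genes detected, against 14142 to 14544 in the other libraries, and 1842 tested genes lay over 2-fold apart between the 2 combination libraries, against 27 to 83 between the libraries of the other groups. Counts of called members in the combination relative to DMSO are given with and without this library.

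Of the 34 tested members, 5 rose and 1 fell in the combination relative to DMSO at an edgeR quasi-likelihood p adjusted by Benjamini-Hochberg under 0.05, which is what "called" means throughout. Over all tested genes, 5.85% were called higher and 3.44% lower in this comparison. IFI6, OAS1, BST2, MX2 and STAT2 rose, and IFI16 fell. The log2 change was above 0 for 26 of the 34 members, with a median of 0.56, compared with a median of 0.01 over all 12401 genes. The count at an unadjusted p under 0.05 was 14 higher and 2 lower, against 2093 higher and 1666 lower of all 12401 genes. DESeq2 called 8 higher and 1 lower, where it called 17.1% of all genes in either direction. Its shares of all genes, here and below, are over the genes it gave an adjusted p. These were 13223 in this comparison and 12587 to 16403 over the 6 comparisons.

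The count of 6 called members moved with the libraries in the fit. It was 18 without combination replicate 1 (13 higher and 5 lower, in a fit that called 7756 genes in all) and 12 without combination replicate 2 (11 higher and 1 lower, in a fit that called 1841), where the fit of all libraries called 1152 genes. The 6 members above were called in both of these fits. Without replicate 1, HERC6, IFI35, IFITM2, ISG15, LY6E, MX1, OAS2 and OASL were also called higher and ADAR, EIF2AK2, SAMD9 and USP18 lower. Without replicate 2, the further members called were DTX3L, IFIH1, PARP9, SAMD9L, TRIM22 and XAF1, all higher. It was 1 and 2 without VTP50469 replicate 1 and replicate 2, 2 and 2 without WM1119 replicate 1 and replicate 2, and 0 and 0 without DMSO replicate 1 and replicate 2. Those 6 fits called 395 and 392, 446 and 429, and 69 and 79 genes in all, in the same order. The log2 changes of the 6 members kept their sign over these 8 fits. IFI6 lay between 4.08 and 5.04, BST2 between 1.27 and 2.29, and STAT2 between 0.71 and 0.81. Other members changed sign, among them EIF2AK2, SAMD9, TRIM22 and LY6E, the last with values from -0.059 to 0.93.

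**Figure D1:**
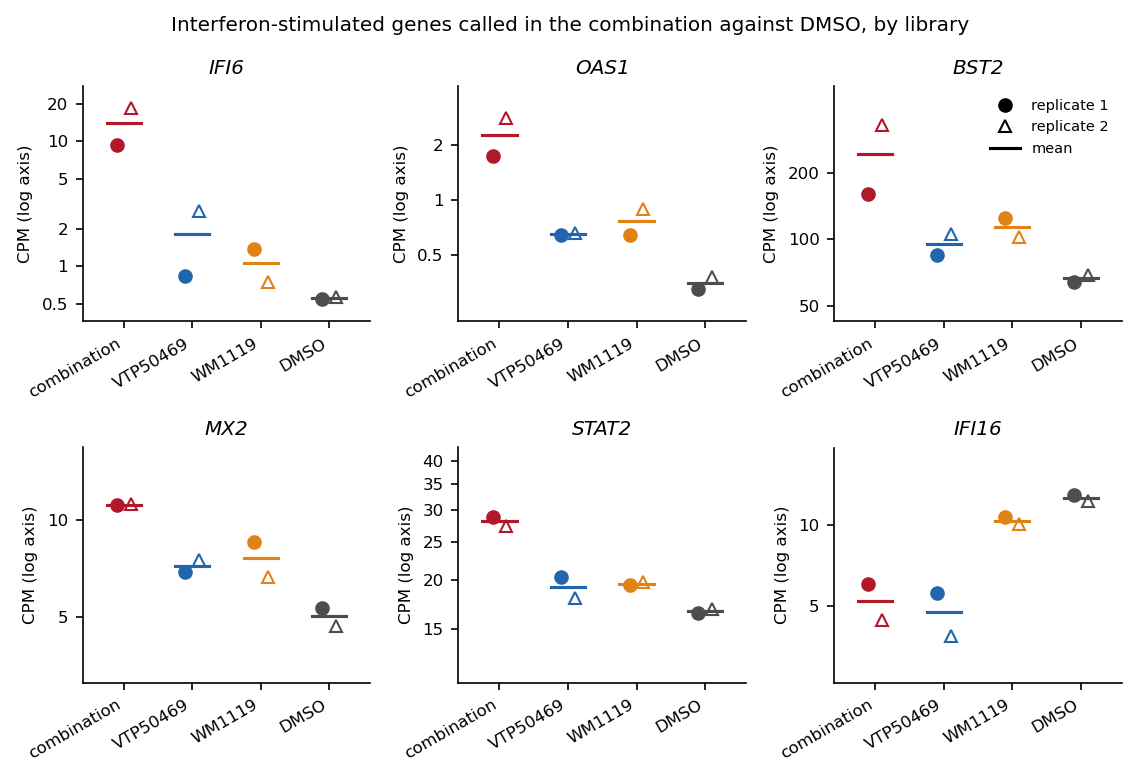
Normalised read counts (CPM, log axis) of the 6 called members in each library, with circles for replicate 1, triangles for replicate 2 and a line at the group mean. In IFI6, OAS1, BST2, MX2 and STAT2 both combination libraries lie above the other 6, and in IFI16 both VTP50469-containing groups lie below the WM1119 and DMSO groups.

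IFI6, a small mitochondrial and endoplasmic reticulum protein that limits cell death and viral replication, had the largest change among the called members. It was at 9.41 and 18.6 CPM in the combination, 0.834 and 2.77 CPM with VTP50469, 1.36 and 0.75 CPM with WM1119, and 0.541 and 0.569 CPM in DMSO. Both combination libraries lay above all 6 others, and the single-agent libraries lay above DMSO by a margin no larger than their own spread. The log2 change in the combination relative to DMSO was 4.64 (SE 0.686, edgeR adjusted p = 0.0122). IFI6 was also the only member called in the combination relative to WM1119, with a log2 change of 3.71 (SE 0.632, adjusted p = 0.0478), whereas relative to VTP50469 the log2 change of 2.94 (SE 0.601) had an adjusted p of 0.102.

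Among the members that carry the signal or sense nucleic acids, 1 of 4 rose and 1 fell in the combination. STAT2, the interferon signalling factor that binds IRF9, was at 28.9 and 27.3 CPM in the combination, 20.3 and 17.9 CPM with VTP50469, 19.3 and 19.7 CPM with WM1119, and 16.4 and 16.8 CPM in DMSO. Its replicates lay close together in every group, and no single-agent library reached the combination level. The log2 change relative to DMSO was 0.76 (SE 0.139, edgeR adjusted p = 0.0229).

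IFI16, a nuclear sensor of DNA, went the other way. It was at 6.02 and 4.4 CPM in the combination, 5.59 and 3.87 CPM with VTP50469, 10.7 and 10.1 CPM with WM1119, and 13.0 and 12.3 CPM in DMSO. The combination and VTP50469 libraries overlapped each other and lay below every WM1119 and DMSO library. The log2 change was -1.27 in the combination relative to DMSO (SE 0.247, edgeR adjusted p = 0.0274) and -1.42 with VTP50469 relative to DMSO (SE 0.248, edgeR adjusted p = 0.121, DESeq2 adjusted p = 0.000404). The 2 RNA sensors of the RIG-I family did not pass the test. DDX58 (RIG-I) had a log2 change of 0.50 in the combination relative to DMSO (95% interval -0.15 to 1.14), and IFIH1 (MDA5) had 1.17 (0.24 to 2.10, edgeR adjusted p = 0.107).

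IFIH1 was at 8.44 and 3.90 CPM in the combination, 5.25 and 3.73 CPM with VTP50469, 3.24 and 3.14 CPM with WM1119, and 2.81 and 2.70 CPM in DMSO. Its lower combination value came from replicate 2 and lay within the range of the VTP50469 libraries. IFIH1 was called in the combination without replicate 2 and was not called without replicate 1.

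Of the 11 RNA-binding or RNA-degrading effectors, 9 were tested and 1 was called. OAS1, which makes the second messenger that activates RNase L, was at 1.74 and 2.79 CPM in the combination, 0.638 and 0.659 CPM with VTP50469, 0.639 and 0.891 CPM with WM1119, and 0.325 and 0.379 CPM in DMSO. The 4 groups fell into 3 levels, with the combination highest, the single agents overlapping each other, and DMSO lowest. The log2 change in the combination relative to DMSO was 2.65 (SE 0.476, edgeR adjusted p = 0.0216), and it was 0.87 (SE 0.495) with VTP50469 and 1.10 (SE 0.489) with WM1119, neither of which passed the test.

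OASL, an OAS-like protein that lacks synthetase activity and binds RIG-I, was at 1.10 and 2.98 CPM in the combination, 0.589 and 0.351 CPM with VTP50469, 1.62 and 0.844 CPM with WM1119, and 0.325 and 0.617 CPM in DMSO. The combination and WM1119 libraries overlapped, and the log2 change of OASL in the combination relative to DMSO was 2.07 (SE 0.692) with both combination libraries and 1.22 without replicate 2. OAS2 had 0.594 and 1.55 CPM in the combination, 0.049 and 0.220 CPM with VTP50469, 0.596 and 0.422 CPM with WM1119, and 0.271 and 0.474 CPM in DMSO. OAS3 was too low to test and had 8 and 10 counts in the combination, 0 and 0 counts with VTP50469, 0 and 0 counts with WM1119, and 0 and 3 counts in DMSO. Summed over libraries, OAS3 was at least 6.52-fold higher in the combination than with VTP50469 and at least 6.77-fold higher than with WM1119, where the bound takes 3 counts for a group at 0. The ratio of OAS3 to DMSO, 18 counts against 3, was 5.98 (95% interval 1.75 to 31.7, exact binomial, covering counting error only). All 4 OAS family members were thus highest in the combination in their group means, and of the 3 that were tested only OAS1 passed the test.

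ADAR, which edits double-stranded RNA from adenosine to inosine, was the most abundant member per length over all 8 libraries after BST2, LY6E and IFITM2, with a mean of 50.2 CPM per kb of transcript. It was at 336 and 185 CPM in the combination, 374 and 342 CPM with VTP50469, 302 and 387 CPM with WM1119, and 370 and 359 CPM in DMSO. Only combination replicate 2 lay far below the rest. EIF2AK2 (PKR), the kinase that stops translation on binding double-stranded RNA, had the same shape, with 18 and 8.43 CPM in the combination, 17.3 and 17.2 CPM with VTP50469, 11.3 and 17.5 CPM with WM1119, and 14 and 16.2 CPM in DMSO. Neither gene was called, and the log2 changes in the combination relative to DMSO were -0.48 for ADAR (SE 0.275, and -0.10 without combination replicate 2) and -0.18 for EIF2AK2 (SE 0.365, and 0.27 without combination replicate 2).

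The IFIT genes, which bind foreign RNA ends and are among the most strongly induced genes in cells given interferon, stayed near the limit of detection. IFIT1 had 4 and 0 counts in the combination, 1 and 1 with VTP50469, 3 and 2 with WM1119, and 3 and 10 in DMSO. IFIT2, IFIT3 and IFIT5 were tested, lay under 2 CPM in all 8 libraries, and had log2 changes in the combination relative to DMSO of 0.13, -0.72 and -0.14, none of them called. ISG20, an exonuclease, was likewise low, with a log2 change of 0.33 (95% interval -1.23 to 1.90).

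Of the 5 large GTPases and viperin, 3 were tested and 1 was called. MX2, a dynamin-like GTPase that blocks nuclear import of viral genomes, had 11.2 and 11.2 CPM in the combination, 6.92 and 7.51 CPM with VTP50469, 8.56 and 6.66 CPM with WM1119, and 5.36 and 4.70 CPM in DMSO. Every treated library lay above both DMSO libraries, and both combination libraries lay above every single-agent library. The log2 changes relative to DMSO were 1.15 in the combination (SE 0.201, edgeR adjusted p = 0.0198), 0.52 with VTP50469 (SE 0.201, adjusted p = 0.662) and 0.60 with WM1119 (SE 0.201, adjusted p = 0.836).

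MX1, the related cytoplasmic GTPase, was near the limit of detection, at 0.339 and 0.744 CPM in the combination, 0.539 and 0.264 CPM with VTP50469, 0.256 and 0.188 CPM with WM1119, and 0.0541 and 0 CPM in DMSO. Its summed counts were 20 in the combination, 17 with VTP50469, 10 with WM1119 and 1 in DMSO, and the ratio of the combination to DMSO was 19.9 (exact binomial 95% interval 3.19 to 826). MX1 did not pass the test (edgeR adjusted p = 0.0681). GBP2, a guanylate-binding protein, ran opposite, with 1.53 and 1.05 CPM in the combination, 1.08 and 1.05 CPM with VTP50469, 1.15 and 1.36 CPM with WM1119, and 2.76 and 1.95 CPM in DMSO. All 6 treated libraries lay below both DMSO libraries in GBP2, and no comparison was called. GBP1 had no counts in any library, which allows up to 3 counts a group (0.067 to 0.0758 CPM), and RSAD2 (viperin) had 1 and 3 counts in the combination, 0 and 4 with VTP50469, 2 and 1 with WM1119, and 0 and 0 in DMSO.

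Among the 5 membrane proteins, 4 were tested and 1 was called. BST2 (tetherin), which holds budding virus at the cell surface, was at 160 and 328 CPM in the combination, 85.0 and 106 CPM with VTP50469, 125 and 103 CPM with WM1119, and 64.2 and 69.3 CPM in DMSO. All 6 treated libraries lay above both DMSO libraries, and both combination libraries lay above the rest. The log2 change relative to DMSO was 1.87 in the combination (SE 0.332, edgeR adjusted p = 0.0210), 0.52 with VTP50469 (SE 0.324) and 0.78 with WM1119 (SE 0.324), of which only the first was called. With combination replicate 1 or replicate 2 left out of the shared fit, the log2 change of BST2 with WM1119 was 0.78 and 0.77.

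LY6E, a lipid-anchored surface protein, was the most abundant member per length, with a mean of 137 CPM per kb over the 8 libraries, followed by BST2 with 130 and IFITM2 with 53.6 CPM per kb. LY6E was at 129 and 260 CPM in the combination, 156 and 174 CPM with VTP50469, 140 and 111 CPM with WM1119, and 132 and 139 CPM in DMSO. One combination library was below every DMSO library and the other above all, so the direction of LY6E depends on replicate 2: the log2 change was 0.52 (SE 0.31) with both and -0.059 without it. IFITM2, which blocks viral fusion in endosomes, was at 52.5 and 92.8 CPM in the combination, 45.6 and 58.5 CPM with VTP50469, 49.6 and 41.6 CPM with WM1119, and 47.3 and 43.2 CPM in DMSO, and was not called (log2 change 0.68, SE 0.280, edgeR adjusted p = 0.157, and 0.23 without combination replicate 2).

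The IFITM genes are closely similar neighbours, and the deposited values of IFITM2 and IFITM3 were not whole in 8 of 8 libraries. The summed value of IFITM1, IFITM2 and IFITM3 was whole in 8 of 8 libraries within 0.0035, so the split between the 3 genes is uncertain. IFITM3 had a log2 change of 0.05 (95% interval -1.45 to 1.56) in the combination relative to DMSO. IFITM1 had 13 counts in the combination, 1 with VTP50469, 1 with WM1119 and 2 in DMSO after rounding, and its ratio of the combination to DMSO was 6.48 (exact binomial 95% interval 1.47 to 59.1).

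All 8 members of the ISG15, ubiquitin and ADP-ribose group were tested and 0 were called in the combination relative to DMSO by edgeR, with 2 higher and 1 lower at an unadjusted p under 0.05 and 0 called by DESeq2. ISG15, the ubiquitin-like modifier itself, was at 13.9 and 36.3 CPM in the combination, 8.83 and 9.49 CPM with VTP50469, 15.9 and 10.9 CPM with WM1119, and 11.4 and 12.1 CPM in DMSO. Only combination replicate 2 stood clear, and the first combination library lay within the range of WM1119. The log2 change relative to DMSO was 1.09 (SE 0.425, edgeR adjusted p = 0.144). It was 0.26 without combination replicate 2 and 1.61 without replicate 1, and only the fit without replicate 1 called it (adjusted p = 0.000484).

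HERC6, a HECT-type ubiquitin ligase related to the main human ISG15 ligase HERC5, had 0.933 and 1.80 CPM in the combination, 0.294 and 0.878 CPM with VTP50469, 0.170 and 0.0469 CPM with WM1119, and 0.216 and 0.285 CPM in DMSO. Both combination libraries were the highest, and the WM1119 libraries were below DMSO. HERC6 was not called in the combination relative to DMSO (log2 change 2.40, SE 0.770, edgeR adjusted p = 0.0986). HERC5 had log2 changes of 1.25 in the combination (95% interval -0.46 to 2.97) and -1.38 with WM1119 (-3.38 to 0.63). USP18, the protease that removes ISG15 and dampens receptor signalling, had a log2 change of -1.08 in the combination (-2.14 to -0.01, edgeR adjusted p = 0.162).

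DTX3L and PARP9 form a complex of a ubiquitin ligase and an ADP-ribosyltransferase. DTX3L was at 55.2 and 39.0 CPM in the combination, 45.1 and 38.3 CPM with VTP50469, 39.6 and 46.1 CPM with WM1119, and 35.4 and 35.7 CPM in DMSO. All 6 treated libraries lay above DMSO in DTX3L and overlapped each other, with a log2 change of 0.41 in the combination (SE 0.201, edgeR adjusted p = 0.211). PARP9 had 0.80 (SE 0.467). The 2 genes start head to head, but their deposited values were whole in most libraries. They were not whole in 1 of 8 libraries for DTX3L and in 2 of 8 for PARP9. Their summed values were whole in 8 of 8 libraries within 0.0035, which whole values mostly give by themselves. TRIM22, a ubiquitin ligase that restricts several viruses, was at 84.2 and 47.4 CPM in the combination, 62.3 and 66.3 CPM with VTP50469, 58.4 and 65.1 CPM with WM1119, and 52.1 and 51.9 CPM in DMSO. One combination library was above all others and the other below all others, and the log2 change of TRIM22 was 0.34 with both (SE 0.256), -0.15 without combination replicate 1, and 0.71 without replicate 2. PARP14 had a log2 change of 0.07 (95% interval -0.64 to 0.78).

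Among the 9 remaining interferon-induced proteins, 6 were tested, and IFI6, described above, was the 1 called. IFI35, which binds NMI and modulates signalling, was at 12.3 and 23.4 CPM in the combination, 6.52 and 6.63 CPM with VTP50469, 10.6 and 6.85 CPM with WM1119, and 7.30 and 7.26 CPM in DMSO. Both combination libraries lay above the rest, with a log2 change of 1.29 (SE 0.342, edgeR adjusted p = 0.0630, DESeq2 adjusted p = 0.00888). XAF1, a pro-apoptotic partner of XIAP, was at 39.1 and 29.5 CPM in the combination, 33.2 and 30.6 CPM with VTP50469, 22.9 and 25.9 CPM with WM1119, and 21.4 and 23.7 CPM in DMSO. The combination and VTP50469 libraries of XAF1 overlapped and all lay above the WM1119 and DMSO libraries, and the log2 change was 0.61 in the combination (SE 0.180, edgeR adjusted p = 0.0823) and 0.50 with VTP50469 (SE 0.179, adjusted p = 0.601).

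SAMD9 and SAMD9L are neighbouring genes that restrain cell growth and poxvirus replication. SAMD9 was at 23.6 and 8.62 CPM in the combination, 21.8 and 18.8 CPM with VTP50469, 16.8 and 26.1 CPM with WM1119, and 21.3 and 21.8 CPM in DMSO. Its log2 change was -0.41 (SE 0.440) with both combination libraries and 0.15 without replicate 2. SAMD9L had a log2 change of 1.16 in the combination (95% interval 0.39 to 1.93, edgeR adjusted p = 0.0704), and SP110, a nuclear body protein, had 0.33 (-0.05 to 0.71). IFI27 had 1 count in WM1119 replicate 1 and 1 in DMSO replicate 1, IFI44 had 1 count in WM1119 replicate 1, and IFI44L had none in any library. These 3 genes are commonly used to score interferon exposure in blood cells.

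**Figure D2:**
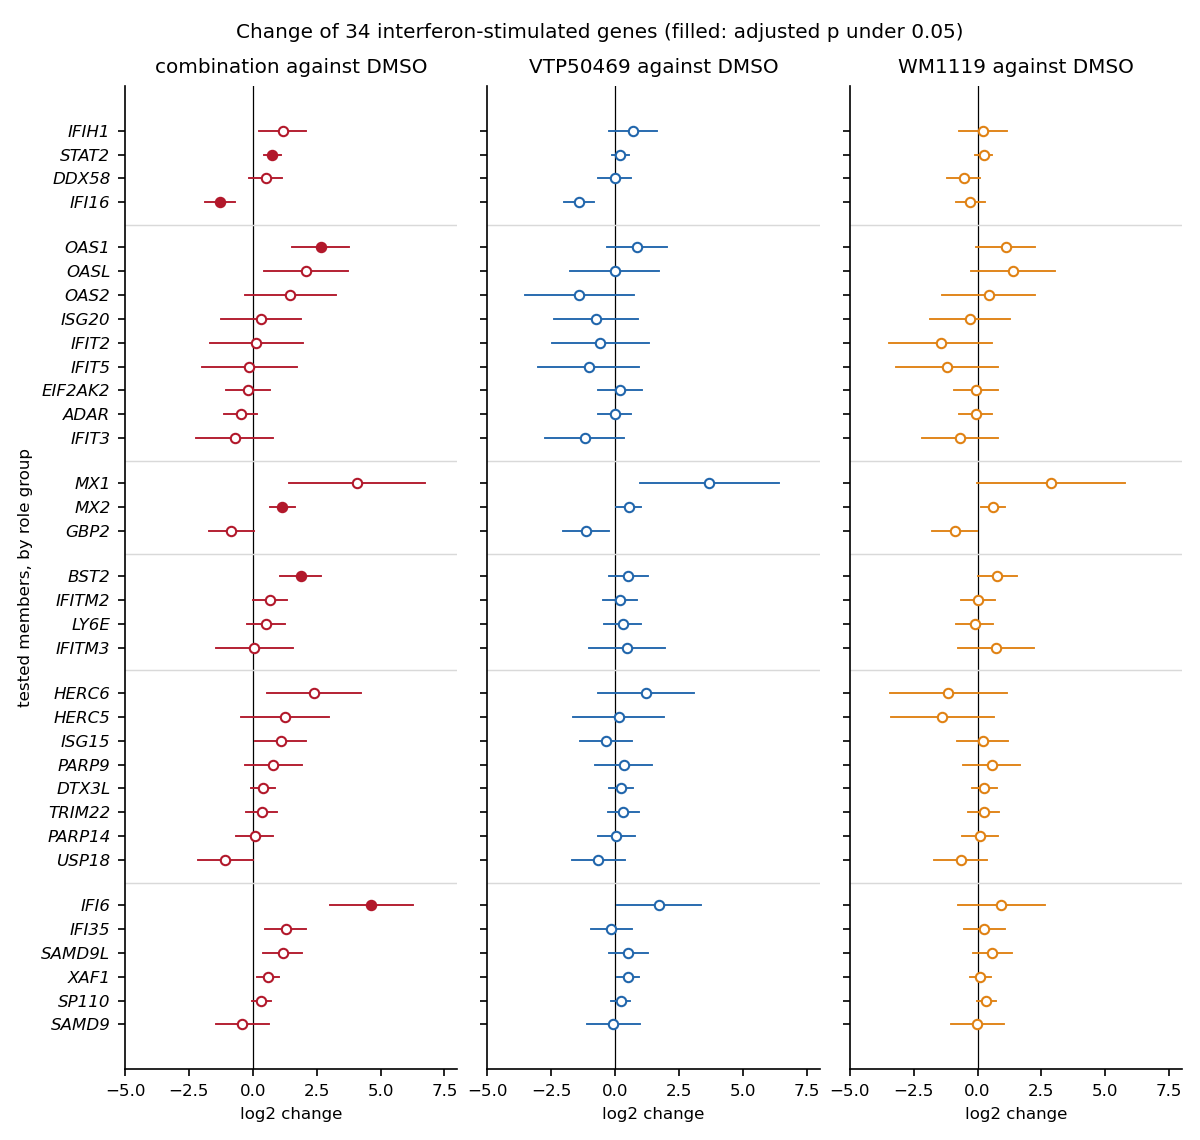
Log2 change relative to DMSO of the 34 tested members (rows, by role group) in the combination, with VTP50469 and with WM1119, with points for the edgeR estimate, bars for its 95% interval and filled points for adjusted p under 0.05. Filled points appear only in the combination, 5 to the right of 0 and IFI16 to the left, and the widest bar in the combination is that of MX1.

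Alone, each inhibitor gave no called member. With VTP50469, 0 of 34 members were called by edgeR, where 0.153% of all tested genes were called higher and 0.0161% lower. At an unadjusted p under 0.05, 4 members were higher and 2 lower, against 475 and 362 of all 12401 genes. DESeq2 called 1, IFI16, where it called 1.58% of all genes. With WM1119, 0 members were called, where 0% of all genes were called higher and 0% lower. At an unadjusted p under 0.05, 2 members were higher and 1 lower, against 391 and 221 of all genes tested. DESeq2 called 0, where it called 0.651% of all genes. The median log2 change of the tested members was 0.20 with VTP50469 and 0.15 with WM1119, against -0.0042 and 0.0085 over all genes. Without combination replicate 1 or replicate 2 in the shared fit, the log2 change of IFI16 with VTP50469 was -1.42 each time. That of BST2 with WM1119 was 0.78 and 0.77, in the same order.

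Seen per library as the log2(CPM + 1) difference from the DMSO mean, the median over the 34 members was 0.44 and 0.38 in the combination, 0.14 and 0.13 with VTP50469, 0.14 and 0.16 with WM1119, and -0.01 and 0.01 in the DMSO libraries. The 2 combination libraries were thus close in this median, although single members differed between them. Both combination libraries lay above both DMSO libraries for 19 of 34 members, where 29% of all tested genes did, and below for 4, where 30.9% did. For VTP50469 these counts were 15 above and 10 below (27.3% and 27.6% of all genes), and for WM1119 they were 12 above and 8 below (24.1% and 20.9%).

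The combination was next set against each inhibitor alone. Relative to VTP50469, 0 members were called by edgeR, where 0.234% of all tested genes were called higher and 0.161% lower. At an unadjusted p under 0.05, 9 were higher and 0 lower, against 1379 and 846 of all 12401 genes. DESeq2 called 5 higher (BST2, IFI35, IFI6, ISG15 and STAT2), where it called 5.07% of all genes, and the median log2 change was 0.48. Relative to WM1119, 1 member, IFI6, was called higher and 0 lower, where 1.02% of all genes were called higher and 0.411% lower, and the median log2 change was 0.61. In that comparison 12 members were higher and 1 lower at an unadjusted p under 0.05, against 1199 and 871 of all genes tested. DESeq2 called 3 higher and 1 lower, where it called 5.32% of all genes. These comparisons share the combination libraries, so their values are not independent of each other or of the comparison with DMSO. Without combination replicate 1 the counts were 15 relative to VTP50469 and 16 relative to WM1119, in fits that called 7222 and 6915 genes. Fewer members were called in both comparisons when any other library was left out, in fits whose total of called genes is not given here. Without combination replicate 2 the log2 change of IFI6 relative to WM1119 was 3.16.

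Whether the combination differed from the sum of the single-agent changes was tested as an interaction on the log2 scale. It was called for 0 of 34 members by edgeR, where 0% of all genes were called in either direction, and for 0 by DESeq2, where 0.0305% were, with 2 members higher (IFI35 and DDX58) and 0 lower at an unadjusted p under 0.05. Over all 12401 genes, 159 were higher and 114 lower at an unadjusted p under 0.05. Without combination replicate 1 the test called 8 members and 3938 genes in all. For IFI6 the 2 single-agent log2 changes were 1.70 (SE 0.693) and 0.93 (SE 0.719), against 4.64 in the combination.

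The rest of the pathway was read from lists of its ligands, receptors, sensors, inhibitors and further target genes. Of 21 interferon genes (type I, II and III ligands), 20 had no count in any library and IFNK had 1 count in WM1119 replicate 1, so that this 1 count was all the ligand RNA detected at this depth. Of 18 receptors, kinases and transcription factors, all tested, 3 rose and 2 fell in the combination relative to DMSO, with a list median of 0.19. Over all tested genes, 5.85% were called higher and 3.44% lower, which is the share to set beside this list and those below. IL10RB, a receptor chain for interferon lambda and interleukin 10, was at 95.3 and 114 CPM in the combination, against 61.9 and 60.5 CPM in DMSO (log2 change 0.77, SE 0.148, edgeR adjusted p = 0.0261). TYK2, a kinase bound to IFNAR1, had a log2 change of 0.48 (SE 0.113, adjusted p = 0.0463) and IRF5, a factor that induces interferon genes, had 0.80 (SE 0.156, adjusted p = 0.0277). IRF8, a factor of monocyte and dendritic cell development, was at 440 and 300 CPM in the combination, against 685 and 695 CPM in DMSO (log2 change -0.90, SE 0.189, adjusted p = 0.0339), and IFNLR1, the other interferon lambda receptor chain, was at 7.38 and 5.45 CPM, against 15.1 and 14.3 CPM in DMSO (log2 change -1.19).

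IRF9, which binds STAT2 and recognises the ISRE, was not called. It was at 6.15 and 10.3 CPM in the combination, against 4.17 and 4.17 CPM in DMSO (log2 change 0.98, SE 0.295, edgeR adjusted p = 0.0861).

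Of 15 tested sensors and adaptors upstream of interferon, 4 rose and 1 fell, with a list median of 0.10. TLR8, a sensor of single-stranded RNA in myeloid cells, was at 6.57 and 2.98 CPM in the combination, 0.932 and 1.19 CPM with VTP50469, 0.0426 and 0.422 CPM with WM1119, and 0 and 0.0474 CPM in DMSO. TLR9, a DNA sensor, rose by 0.79 on the log2 scale (SE 0.181), IKBKE, a kinase that activates IRF3, by 1.35 (SE 0.170), and NLRC5, an activator of MHC class I genes, by 0.89 (SE 0.134). TRAF3, an adaptor of these receptors, was at 22.7 and 16.9 CPM in the combination, against 42.7 and 44.2 CPM in DMSO (log2 change -1.13, SE 0.173, edgeR adjusted p = 0.0131). Of 11 tested inhibitors of the pathway, TRIM21 rose, with a log2 change of 1.18 (SE 0.161, adjusted p = 0.00920), 0 fell, and the list median was -0.01.

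The further list held interferon-stimulated genes that are not among the 42 members. Like the members, this list was chosen with earlier results of these data known, so its share is not an independent check. Of 39 tested, 16 rose and 0 fell in the combination relative to DMSO, where 5.85% of all tested genes were called higher and 3.44% lower. The list median log2 change was 0.69. TNFSF10 (TRAIL), a death ligand, was at 11.2 and 12.3 CPM in the combination, 4.61 and 4.04 CPM with VTP50469, 5.54 and 5.21 CPM with WM1119, and 2.22 and 2.66 CPM in DMSO, with a log2 change of 2.26 (SE 0.211, edgeR adjusted p = 0.00299). PSMB9, an immunoproteasome subunit, had a log2 change of 1.97 (SE 0.341), UBE2L6, the conjugating enzyme for ISG15, had 1.67 (SE 0.253), and UBA7, its activating enzyme, had 1.34 (SE 0.245). The ISG15 enzymes UBA7 and UBE2L6 were called and ISG15 itself was not, which does not show that their changes differed. The log2 change of ISG15 was 1.09 (95% interval 0.08 to 2.10), and this interval holds the values of both enzymes. A difference between these genes was not tested.

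The other 12 called genes of that list were APOL1, IFI30, FAM46A, APOBEC3G, RTP4, PARP10, PLSCR1, DDX60L, APOL2, STX11, SP100 and PML, with log2 changes between 0.69 (PML) and 1.61 (IFI30). With VTP50469 or WM1119 alone, 0 genes of the 4 lists were called by edgeR. DESeq2 called 1 further interferon-stimulated gene higher with each agent and 2 sensors or adaptors higher with VTP50469. Over all genes it called 1.58% with VTP50469 and 0.651% with WM1119, in either direction. At an unadjusted p under 0.05 the further genes had 8 higher with VTP50469 and 5 higher with WM1119, against 475 and 391 of all 12401 genes. In the fits that follow, the number of all genes called moved too, as given above for the members. The count of 16 depended on the libraries too: it was 33 without combination replicate 1 (26 higher and 7 lower), 20 without combination replicate 2, 4 without either VTP50469 library, 5 without either WM1119 library, and 0 and 1 without DMSO replicate 1 and replicate 2.

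**Figure D3:**
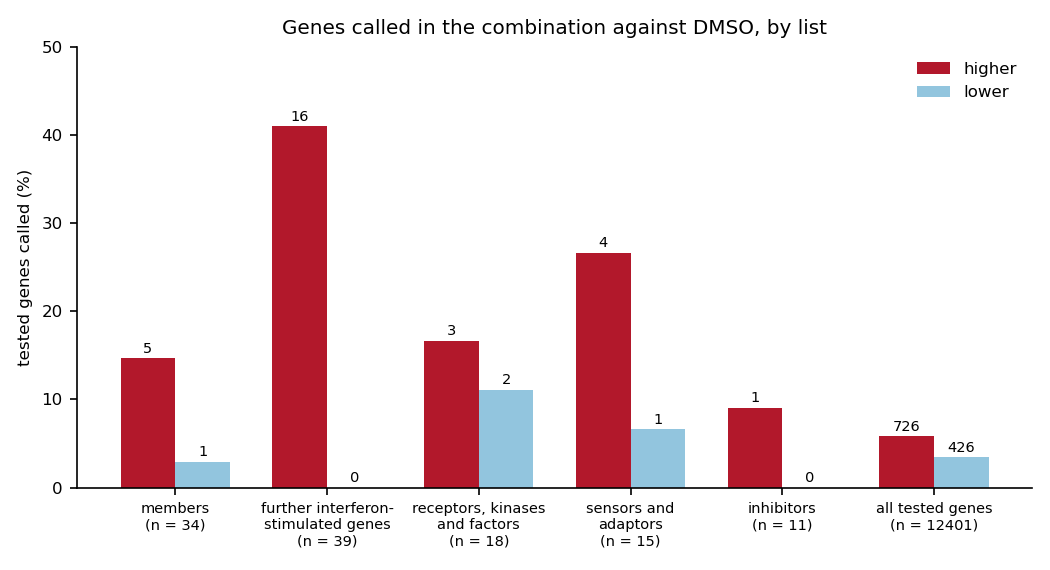
Share of tested genes called higher or lower (%, y axis) in the combination relative to DMSO for the members, 4 further lists and all tested genes, with the number of genes above each bar. The members had 5 higher and 1 lower of 34, and the further interferon-stimulated genes had 16 higher and 0 lower of 39, against 726 higher and 426 lower of 12401. The members and the 4 lists were chosen with earlier results of these data known.

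The 2 combination libraries disagreed in a way that followed transcript length. Over the 34 members, the difference in log2(CPM + 1) between combination replicate 2 and replicate 1 had a Spearman correlation of -0.56 with transcript length, and over 12112 tested genes with a length it was -0.62. Both values are descriptions across genes, which are not independent replicates. The same measure was -0.48 for the members in the VTP50469 pair, 0.71 in the WM1119 pair and 0.06 in the DMSO pair. Among the 11 shortest members (611 to 2390 nt), 9 were higher in combination replicate 2 than in replicate 1, and their median log2 difference from the DMSO mean was 0.23 in replicate 1 and 1.02 in replicate 2. Among the 11 longest (4088 to 9975 nt), 1 was higher in replicate 2, and the medians were 0.41 and 0.13.

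Some members gave opposite signs in the 2 combination libraries. LY6E (1131 nt) differed from the DMSO mean by -0.07 in replicate 1 and 0.94 in replicate 2 on the log2(CPM + 1) scale, and SAMD9 (6806 nt) by 0.13 and -1.23. MX2 (3408 nt) and STAT2 (4405 nt) differed by 1.01 and 1.02 and by 0.77 and 0.69. When a smooth function of transcript length was added to the model as an offset for each library, 14 members were called, 13 higher and 1 lower, in a fit that called 2632 genes in all. The 6 members above were among them, and DTX3L, IFI35, IFIH1, MX1, PARP14, SAMD9L, SP110 and XAF1 joined them. In that fit LY6E, IFITM2 and ISG15 had log2 changes of 0.02, 0.18 and 0.42, and EIF2AK2 had 0.25.

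**Figure D4:**
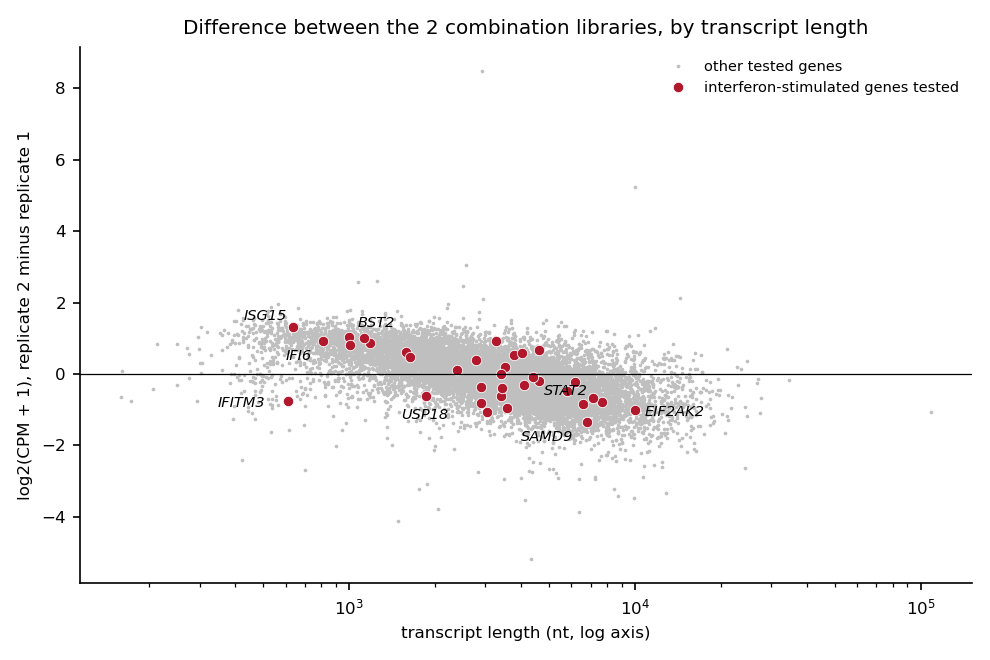
Difference in log2(CPM + 1) between combination replicate 2 and replicate 1 (y axis) against transcript length in nt (log x axis), with grey points for tested genes and red points for the 34 tested members. Short members such as ISG15, IFI6 and BST2 lie above 0 and long ones such as SAMD9 and EIF2AK2 below 0, along the slope of the other genes, with IFITM3 and USP18 as short members below 0.

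The genes most like the members in pattern were found by Pearson correlation of log2(CPM + 1) with the mean of the 34 members over the 8 libraries, among 12367 other tested genes. They were NHS (r = 0.99), ZMYM6NB (0.99), SIGLEC5 (0.99), FBP1 (0.98) and EMILIN2 (0.98). The 8 points share libraries and fall into 4 groups of 2, so these values rank the genes and describe no more than that.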

How the data were processed

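The members and all gene lists were chosen with earlier results of these data known. The authors deposited expected counts per gene symbol for 8 libraries, not normalized, made from 150 bp paired-end reads; the labels name STAR 2.5.1b and hg38. How reads were counted, on which strand and with which annotation is not stated in the sources used here, and the paper and labels name different media and kits. Between 11.4% and 16.6% of values per library were not whole and all were rounded. In R 4.3.3, edgeR 4.0.16 (filterByExpr, TMM factors, quasi-likelihood F test) was fitted to the 4 groups together. It kept 12401 of 26475 genes, with a common dispersion of 0.0457 and 4 residual and 2.88 prior degrees of freedom. Benjamini-Hochberg adjustment covered all tested genes at a threshold of 0.05. DESeq2 1.42.0 on 16403 genes with at least 1 count was an alternative, as were other scalings, filters, a replicate block, a transcript length offset (GENCODE 44, loess span 0.4), fits of the compared groups only, and leaving out each library. The counts of the further interferon-stimulated genes under these alternatives were added after seeing the data. The procedure was tested on simulated counts. Per-library values are given for members called in any of 6 comparisons and, in each role group, the 2 most abundant and the 2 with the lowest unadjusted p in the combination relative to DMSO, and OAS2, IFIH1 and the untested OAS3 were added after their values were seen. Genes outside the members are named if called in that comparison and on a list, and IRF9 was added as a partner of STAT2. One result is not reported here.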

Additional observations from a re-analysis of the deposited data

How the results depend on the processing

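For the combination relative to DMSO (6 called members), the count was 14 with the length offset (2632 genes called in all), 0 when only the compared groups were fitted (0 in all), and 0 to 18 leaving out each library. For VTP50469 (0 called), it was 1 with DESeq2 (204 in all), 1 with the length offset (140 in all), 5 with only the compared groups (BST2, LY6E, TRIM22 and XAF1 higher and IFI16 lower, with 1332 in all), and 0 to 1 leaving out each library. For WM1119 (0 called), leaving out each library gave 0 to 1. For the combination relative to VTP50469 (0 called), it was 5 with DESeq2 (671 in all), 1 with no count filter (148 in all), 5 with the length offset (467 in all) and 0 to 15 leaving out each library. Relative to WM1119 (1 called), it was 4 with DESeq2 (703 in all), 0 with library size only (147 in all), 0 with the replicate block (65 in all), 4 with the length offset (666 in all), 0 with only the compared groups (0 in all), and 0 to 16 leaving out each library. For the interaction (0 called), leaving out each library gave 0 to 8. The cause of these shifts was not tested. Where a group kept 1 library, that library was assumed to vary like the other groups.

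Signs reversed for EIF2AK2 with the length offset (log2 change 0.25). Leaving out each library gave log2 changes of -0.85 to 0.27 for EIF2AK2, -1.33 to 0.15 for SAMD9, -0.059 to 0.93 for LY6E and -0.15 to 0.71 for TRIM22, with the ends set by the 2 combination libraries. Scaling by library size only moved the median of all genes by -0.11 in the combination relative to DMSO. It ended the call of STAT2 (edgeR adjusted p = 0.0661), and the other called members kept their calls. Same-numbered deviations correlated between -0.66 and 0.35 over pairs of groups. Differences between replicates also followed transcript length, in opposite directions in the combination and WM1119 pairs. These correlations therefore cannot tell if replicate numbers pair the libraries. With a replicate block, STAT2 lost its call in the combination relative to DMSO (edgeR adjusted p = 0.0589), and the other called members kept theirs. With 2 libraries a group and members under 1 CPM such as the IFIT genes, wide intervals limit what a missing call shows.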
